A study of Mus musculus with 2 samples.

Results

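Macrophages and microglial precursors were sought among mouse embryonic cells by a rule on transcripts. A cell barcode was a member when it held at least 1 UMI (unique molecular identifier, a counted RNA molecule) of at least 2 of 10 rule genes, Csf1r, Ptprc, Mrc1, C1qa, C1qb, C1qc, Fcer1g, Tyrobp, Cx3cr1 and Aif1. It also had to hold no UMI of Cdh5, Sox10, Epcam or Alx1, which mark endothelium, neural crest, epithelium and frontonasal mesenchyme. The rule found 241 members among 37628 barcodes, 147 of 18572 in the control library and 94 of 19056 in the library of embryos with neural tube defects (NTD). The label held for only some of them: the 87 members with at least 3 rule genes carried a broad set of macrophage transcripts, and the 154 members with exactly 2 rule genes mostly did not. Results on macrophage genes are therefore given for the 87 barcodes, 52 from the control library and 35 from the NTD library.

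Tissue macrophages of the early embryo arise largely in the yolk sac and spread through the body while the neural tube closes. Some enter the brain and become microglia, its resident macrophages, while others settle at its borders and around vessels and keep the mannose receptor Mrc1. Both kinds depend on the receptor Csf1r and on the transcription factor PU.1, the product of Spi1, and both engulf dying cells, sense nucleotides through P2Y receptors and make complement component C1q.

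The data came from single-cell RNA sequencing on the 10x Genomics Chromium platform of tissue labelled as brain, with 1 library per group. The NTD library came from embryos of dams fed a low-folate diet and given 1.5 mg/kg of MTX (methotrexate, a folate antagonist) into the peritoneum at gestational day 7.5. Neural tube closure was scored between E9.5 and E10.5, and embryos of this group were small and delayed, mainly with hindbrain malformations and spina bifida. The control embryos, labelled as given normal saline, were normal in form with closed neural tubes. What the control dams ate, the stage at collection, and how many embryos of which sex went into a library are not stated. With 1 library per group there was no test across samples, and each interval below is a 95% interval that covers counting error only.

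The control library held 50741121 UMIs (median 2234 per barcode, lowest 1027) and the NTD library 55524355 (median 2456, lowest 1589). The libraries stood apart in tissue and sex before any macrophage was considered. Outside the members, 21 posterior Hox genes summed to 677 CPM (UMIs per 1000000 UMIs) in control and 33.4 in NTD, and 11 liver or yolk sac genes to 686 and 80.0 CPM. Xist, the RNA of the inactive X chromosome, stood at 89.1 and 907 CPM there, and the Y-linked gene Uty at 197 and 68.8 CPM. The libraries shared 105 cell barcode sequences, of which 1 belonged to a member and none to members of both.

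Macrophage genes that the rule did not use separated the members by the number of rule genes detected. A list of 38 such genes, including Spi1, Adgre1, Lcp1 and Itgam, summed to 168 CPM in control and 128 CPM in NTD barcodes without any rule gene. The sums were 195 and 144 CPM with 1 rule gene, just outside the rule, and 357 (interval 302 to 418) and 271 (203 to 355) CPM with exactly 2, just inside it. With 3 or 4 rule genes they reached 2963 and 2121 CPM, and with 5 or more 2366 and 3199 CPM. The step in macrophage content thus lay between 2 and 3 rule genes in both libraries.

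**Figure D1:**
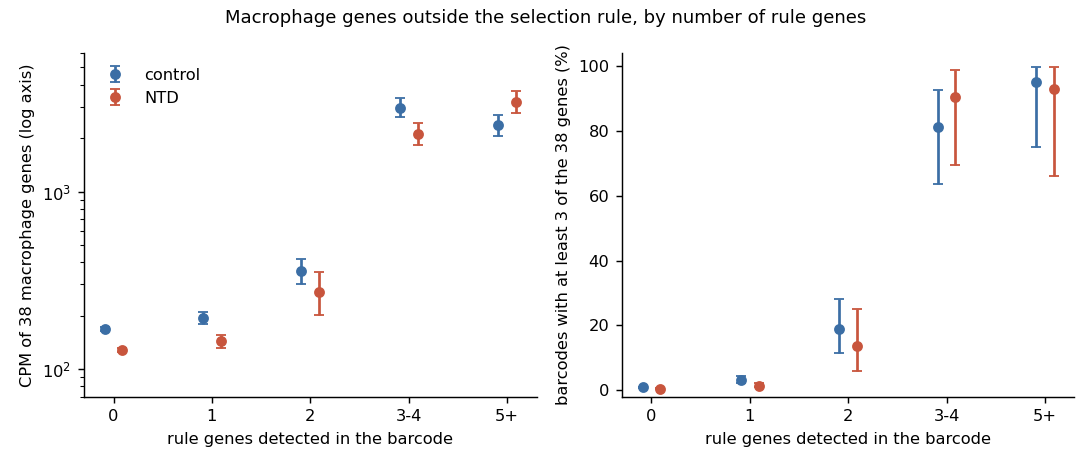
Summed CPM of 38 macrophage genes outside the rule (left, log axis) and percent of barcodes with at least 3 of these genes (right), by number of rule genes detected, for control (blue) and NTD (red). Points are the value of 1 library and bars are 95% counting intervals. Both measures step up between 2 rule genes (357 and 271 CPM) and 3 or 4 rule genes (2963 and 2121 CPM).

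The share of barcodes with at least 3 of the 38 genes showed the same step. It was 18.9% in control and 13.6% in NTD members with exactly 2 rule genes, against 86.5% and 91.4% with at least 3. After each barcode was thinned to 1500 UMIs, which left out 12 and 0 of the former and 3 and 0 of the latter, the shares were 8.43% and 8.47% against 71.4% and 65.7%. Median depth was 3112 and 2691 UMIs with exactly 2 rule genes and 2763 and 3526 with at least 3. Among the 154 barcodes with exactly 2, the commonest pairs were Fcer1g with Cx3cr1 (26 barcodes), C1qb with Fcer1g (11) and Csf1r with Cx3cr1 (9).

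Clustering of the 241 members gave 5 clusters, of which 1 was macrophage-like. It held 83 barcodes (53 control and 30 NTD) and all 5 macrophage markers. These markers, Csf1r, Mrc1, Ptprc, C1qb and Tyrobp, gave the cluster its name. All are rule genes, so the name is no support beyond the rule. Irf8, Vsir, Nfam1 and Csf3r, which is also listed as a granulocyte gene, were among the leading genes of the cluster. Of the 83 barcodes 66 had at least 3 rule genes and 17 had exactly 2. Cluster 2 (56 barcodes) held 8 of 12 neuron markers and had a median of 4851 UMIs, and 22 of its barcodes lay in the highest 10% of doublet scores of their library, against 1 in the macrophage-like cluster. Cluster 3 (52 barcodes) held 7 of 12 mesenchyme markers, cluster 4 (25 barcodes) 9 of 13 erythroid markers, and cluster 5 (25 barcodes) 9 of 12 neural progenitor markers. Clusters 2 to 5 held 47, 48, 24 and 18 barcodes with exactly 2 rule genes, and stay unnamed here. These clusters were built from the same genes that describe them, so their markers are a description and not a test.

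**Figure D2:**
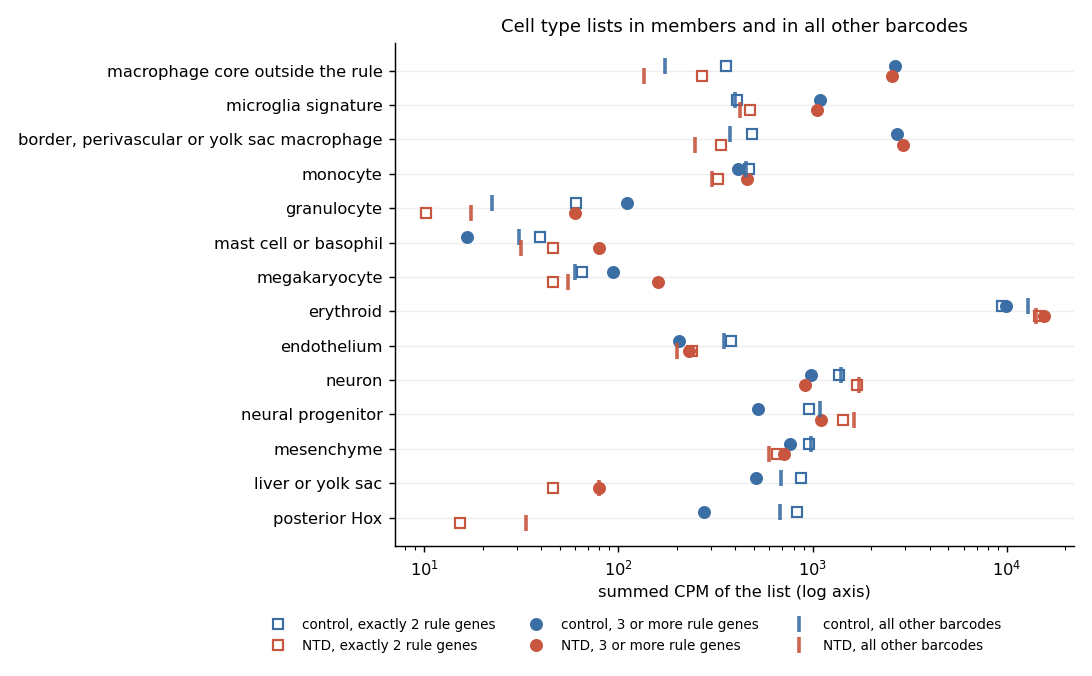
Summed CPM (log axis) of 14 cell type lists in members with exactly 2 rule genes (squares), members with at least 3 (circles) and all other barcodes (ticks), for control (blue) and NTD (red). Members with at least 3 rule genes lie above the other barcodes for the macrophage, border and microglia lists, least of these for microglia (1086 and 1056 against 397 and 422 CPM). They also lie above them for the granulocyte list (111 and 59.8 against 22.4 and 17.4 CPM) and the megakaryocyte list (94.2 and 159 against 59.7 and 55.4 CPM). The granulocyte sums in these members rest on 20 and 9 UMIs and the megakaryocyte sums on 17 and 24. Pf4, which is also in the border list, holds 11 and 22 of the megakaryocyte UMIs. Members with exactly 2 lie near the other barcodes for most lists. The posterior Hox list has no circle for NTD because its sum was 0.

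Transcripts of other cell types were present in the 87 barcodes too. Embryonic and adult globin genes dominated a 13-gene erythroid list, which summed to 9861 and 15463 CPM in control and NTD, against 12921 and 14207 CPM in all other barcodes of the same libraries. Neuron genes summed to 981 and 910 CPM and stood at 1404 and 1731 CPM in the other barcodes. Neural progenitor genes summed to 526 and 1109 CPM, against 1098 and 1633 CPM. Mesenchyme genes summed to 765 and 711 CPM, against 984 and 599 CPM, and endothelium genes to 205 and 232 CPM, against 352 and 200 CPM. Both lists were below the other barcodes in control and above them, by less than counting error, in NTD. Posterior Hox genes gave 277 CPM in control and 0 of 150552 UMIs in NTD, where a count of 0, taken as at most 3 counts, allows up to 19.9 CPM. How far these transcripts move with the macrophage genes below was not tested.

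The rule genes themselves are given as a description, since they chose the members. Mrc1, the mannose receptor, had 151 UMIs in 33 of 52 control barcodes (836 CPM, 708 to 981) and 95 in 22 of 35 NTD barcodes (631 CPM, 510 to 771). Ptprc, the leukocyte phosphatase CD45, had 69 and 46 UMIs (382 and 306 CPM), and was present at 590-fold and 371-fold its level in all other barcodes. Csf1r, the receptor for the growth factors CSF1 and IL-34, had 46 and 26 UMIs (255 and 173 CPM). Cx3cr1, the fractalkine receptor of microglia and their precursors, had 54 and 31 UMIs (299 and 206 CPM). These 4 cell surface genes had log2 ratios of NTD over control of -0.40, -0.32, -0.55 and -0.53.

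The genes of secreted C1q and the adaptor gene Fcer1g had ratios above 0. C1qb, a chain of C1q, had 24 UMIs in control (133 CPM, 85.2 to 198) and 37 in NTD (246 CPM, 173 to 339). C1qc had 21 and 34 UMIs (116 and 226 CPM), and C1qa 18 and 19 (99.7 and 126 CPM). Fcer1g, the shared signalling chain of Fc receptors, had 31 and 45 UMIs (172 and 299 CPM). Tyrobp, the DAP12 adaptor through which TREM2 signals, had 20 and 17 UMIs (111 and 113 CPM), and Aif1, which encodes the microglial marker IBA1, had 3 and 5. The rule genes with ratios below 0 span 31.6 to 168 kb of the genome and these 6 span 2.89 to 6.06 kb, and a relation of the ratio to span over all genes is given below. Over all barcodes, without thinning, C1qc was detected in 0.748% of control and 1.05% of NTD barcodes, and Cx3cr1 in 2.99% and 2.08%. In neuron-marked barcodes, defined below, the shares were 0.521% and 0.843% for C1qc, and 3.09% and 2.05% for Cx3cr1. At least 1 C1q gene was detected in 29 of 52 control and 27 of 35 NTD barcodes.

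**Figure D3:**
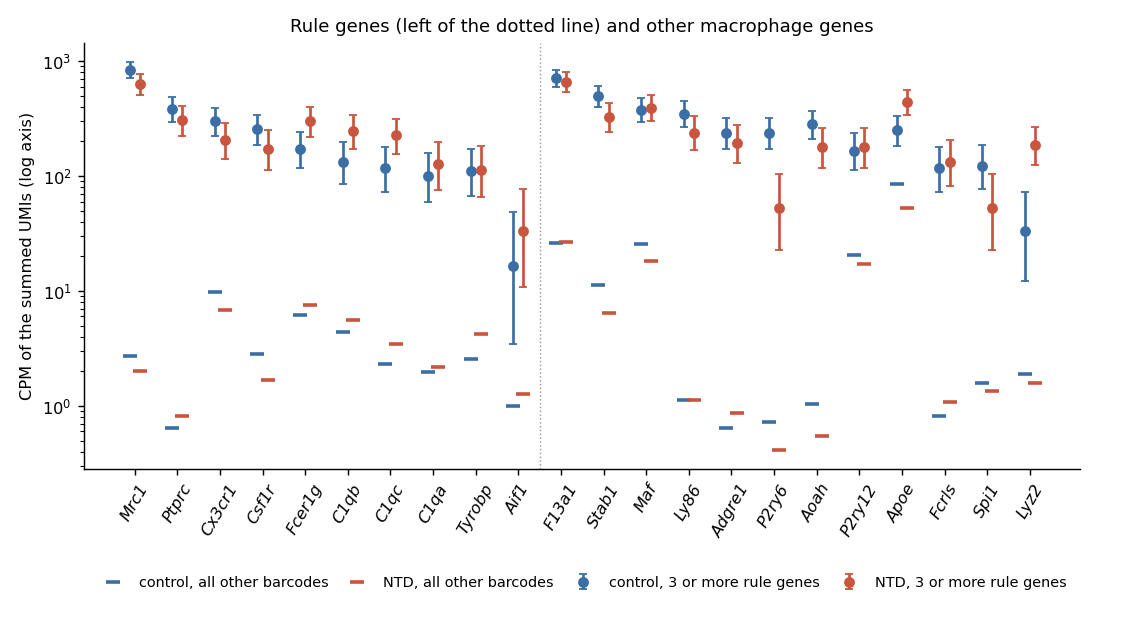
CPM (log axis) of the 10 rule genes and 12 other macrophage genes in members with at least 3 rule genes (points, 95% counting intervals) and in all other barcodes of the same library (ticks), for control (blue) and NTD (red). P2ry6 (238 and 53.1 CPM) and Lyz2 (33.2 and 186 CPM) are the 2 genes right of the dotted line whose intervals are furthest apart.

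Promoter sequence is shown for Mrc1 and C1qb, rule genes with ratios on opposite sides of even, and for Stab1 and Inpp5d, which are described below and were among the 20 genes highest in members over other barcodes. The letters GAGGAA, the purine-rich core that PU.1 and other ETS factors can bind, are in capitals, as is their reverse complement TTCCTC. Sequences are RefSeq entries on GRCm38.p6, read 5′ to 3′ on the strand of the gene over the 250 bases before the start site. For Mrc1 the last 22 of these are left out because GENCODE places them in an exon. The windows are chr2:14229164-14229391 (plus strand), chr4:136886201-136886450 (minus), chr14:31168642-31168891 (minus) and chr1:87620062-87620311 (plus).
Mrc1: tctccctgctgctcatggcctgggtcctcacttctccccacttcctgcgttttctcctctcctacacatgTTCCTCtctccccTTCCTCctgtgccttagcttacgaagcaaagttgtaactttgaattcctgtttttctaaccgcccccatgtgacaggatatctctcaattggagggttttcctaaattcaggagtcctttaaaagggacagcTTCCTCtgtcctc
C1qb: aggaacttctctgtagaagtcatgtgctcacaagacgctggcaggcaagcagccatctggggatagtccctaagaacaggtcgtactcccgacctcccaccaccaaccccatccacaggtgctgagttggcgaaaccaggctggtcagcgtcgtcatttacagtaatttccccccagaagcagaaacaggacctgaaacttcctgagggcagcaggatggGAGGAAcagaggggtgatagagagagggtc
Stab1: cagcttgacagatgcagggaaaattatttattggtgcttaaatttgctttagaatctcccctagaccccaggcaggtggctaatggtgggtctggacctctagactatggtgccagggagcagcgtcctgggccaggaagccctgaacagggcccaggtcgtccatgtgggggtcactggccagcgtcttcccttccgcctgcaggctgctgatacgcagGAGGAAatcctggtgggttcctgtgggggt
Inpp5d: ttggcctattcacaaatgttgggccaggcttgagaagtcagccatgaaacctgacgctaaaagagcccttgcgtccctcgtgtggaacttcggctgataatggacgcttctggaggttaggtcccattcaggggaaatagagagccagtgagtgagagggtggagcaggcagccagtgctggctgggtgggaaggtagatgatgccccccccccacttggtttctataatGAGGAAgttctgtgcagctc

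The match in Mrc1 occurs 3 times, 180, 167 and 35 bases before the start site. It occurs at 30 bases in C1qb, at 30 in Stab1 and at 20 in Inpp5d. Of the 10 rule genes, 7 have an entry, and 5 of these (71.4%) hold the letters on either strand: Aif1, C1qb, C1qc, Mrc1 and Ptprc. Of the 20 genes highest over other barcodes, 16 have an entry and 5 hold them (31.3%). Over all 27025 genes with an entry the share is 25.9%. A match describes the letters in this window and is not a bound site.

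Some border and microglia genes were well detected in the 87 barcodes and others of both lists had no UMI. Of 21 genes in the border and yolk sac list 9 were at 0 in control and 7 in NTD, and of 21 in the microglia list 5 and 4. F13a1, the coagulation factor XIII subunit of yolk sac and border macrophages, had 128 UMIs in control and 100 in NTD (709 and 664 CPM, against 25.9 and 26.8 CPM in other barcodes). Dab2, an endocytic adaptor, had 154 and 129 UMIs. P2ry12, the ADP receptor of microglia, had 30 and 27 UMIs (166 and 179 CPM) and Fcrls, an Fc receptor-like gene of microglia, 21 and 20 (116 and 133 CPM). The intervals of the log2 ratios of these 4 genes, given further on, all include 0.

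Some other defining genes had fewer UMIs or none, at most 14 in a library among those given here. The mature microglia genes Tmem119 and Sall1 had 1 and 3, and 2 and 3 UMIs in control and NTD. At these counts neither gene was separable from other barcodes, where Tmem119 stood at 9.79 and 6.02 CPM and Sall1 at 23.2 and 21.7 CPM. Siglech had 6 and 1 UMIs. The haemoglobin scavenger receptor Cd163 had none in either library, and Lyve1, a hyaluronan receptor of some border macrophages, had 14 and 4. The monocyte genes Ccr2 and Ly6c2 had 2 and 5, and 1 and 0 UMIs, and Ccr2, Ly6c2 or Plac8 were detected in 3 of 52 and 6 of 35 barcodes.

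Genes of both macrophage kinds were found in the same barcodes. At least 1 of the border genes Lyve1, F13a1, Stab1 and Pf4 was detected in 45 control and 31 NTD barcodes, and at least 1 of the microglia genes P2ry12, Fcrls, Tmem119, Sall1, Gpr34 and Siglech in 33 and 25. Both sets were detected in 30 and 23, that is in 53 of 87. P2ry12 was found together with Mrc1 in 11 and 12 barcodes. Mki67 or Top2a, genes of dividing cells, were detected in 38 and 29 barcodes. Transcripts of Top2a, P2ry12 and F13a1 also occur in barcodes of other types, so these counts are not counts of cells expressing the genes. F13a1 was detected in 8.81% of control and 6.47% of NTD neuron-marked barcodes, defined below, and P2ry12 in 6.31% and 4.99%.

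Members made up 0.792% of control barcodes (Clopper-Pearson interval 0.669 to 0.930) and 0.493% of NTD barcodes (0.399 to 0.603). The difference was -0.298 percentage points (Newcombe interval -0.463 to -0.137). With at least 3 rule genes the shares were 0.280% and 0.184%, and the difference of -0.0963 points (-0.197 to 0.00136) did not exceed counting error. With only barcodes of at least 1600 UMIs in both libraries, the differences were larger, -0.422 points for all members and -0.145 (-0.267 to -0.0353) with at least 3 rule genes. In the macrophage-like cluster the difference was -0.128 points (-0.227 to -0.0330). Every version of this share was lower in the NTD library, but its size depended on which barcodes were counted.

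The 4 exclusion genes removed unequal numbers from the libraries. At least 1 of them was detected in 16.8% of all control and 23.8% of all NTD barcodes, mainly through Alx1 (5.72% and 13.2%) and Epcam (5.41% and 8.33%). Among barcodes with at least 2 rule genes, they removed 35 of 182 (19.2%) in control and 63 of 157 (40.1%) in NTD. Without them the shares were 0.980% and 0.824%, a difference of -0.156 points (-0.349 to 0.0353). After thinning to 1500 UMIs they were 0.396% and 0.315%, a difference of -0.0810 points (-0.216 to 0.0461). A share of barcodes also moves with the amount of every other tissue in the library, and the libraries differed in tissue as given above.

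NTD and control were compared within the 87 barcodes as log2 ratios of the CPM of summed UMIs, after adding 0.5 counts, for genes with 30 or more UMIs in the pair of libraries together. A difference of 1.5-fold was used to count genes, with rule and exclusion genes left out. Of 2806 measured genes, 406 (14.5%) were higher in NTD and 499 (17.8%) lower, with a median log2 ratio of -0.05. With the libraries rescaled by the trimmed mean of M-values (TMM), which adds 0.12 to every log2 ratio, the split turned to 528 higher and 363 lower, with a median of 0.08. Counts for the gene groups below stand against these shares.

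The ratio moved with the genomic span of the gene, in members and in other barcodes alike. In the 87 barcodes the median log2 ratio was 0.31 for the 935 genes of shortest span (up to 26.5 kb), -0.15 for the middle class and -0.24 for the longest (from 93.0 kb). For the same genes in all other barcodes it was 0.35, -0.21 and -0.37. Of the shortest class 271 genes were higher and 85 lower, and of the longest class 69 were higher and 221 lower. The span classes of a group's genes are therefore given beside its count. Its part in each ratio was not tested.

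**Figure D4:**
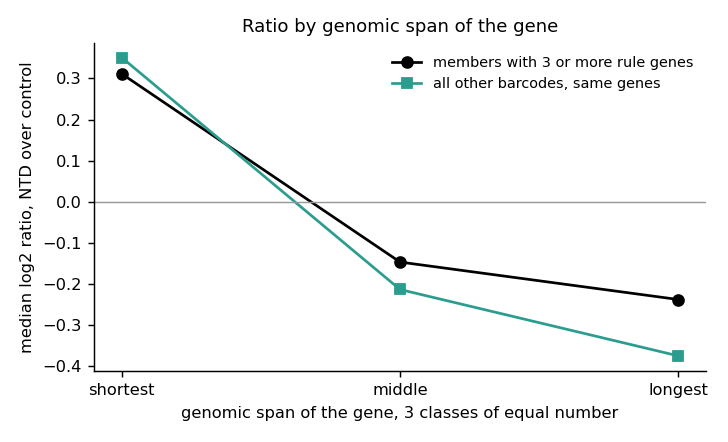
Median log2 ratio of NTD over control for 3 classes of genes of equal number by genomic span, in members with at least 3 rule genes (circles) and in all other barcodes (squares). The median goes from 0.31 to -0.24 in the members and from 0.35 to -0.37 in the other barcodes.

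The 38-gene macrophage list as a whole summed to 2659 CPM for control and 2551 CPM for NTD. Of its 9 measured genes, 2 were higher and 2 lower, with a median log2 ratio of 0.06, and 4 belong to the shortest and 2 to the longest span class. Adgre1, which encodes F4/80, had a log2 ratio of -0.30 (-1.04 to 0.41), the transcription factor gene Maf 0.06 (-0.47 to 0.58), and Lcp1, an actin-bundling protein of leukocytes, 0.08. Lyz2, the lysozyme of myeloid cells, had 6 UMIs in 6 control barcodes and 28 in 8 NTD barcodes, but 20 of these 28 came from 1 barcode. Its log2 ratio of 2.39 (1.18 to 4.05) rested on that barcode. Spi1 had 22 UMIs in control and 8 in NTD (122 and 53.1 CPM), a log2 ratio of -1.14 whose interval of -2.57 to 0.02 reached 0.

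P2ry6, the UDP receptor of phagocytes (chr7:100937630-100974649 on GRCm38), showed one of the largest differences among macrophage genes. It had 43 UMIs in 26 of 52 control barcodes (238 CPM, 172 to 321) and 8 UMIs in 7 of 35 NTD barcodes (53.1 CPM, 22.9 to 105). No barcode held more than 4. The log2 ratio was -2.09 (-3.46 to -1.06), against -0.77 in all other barcodes, where the gene stood at 0.718 and 0.417 CPM. In the macrophage-like cluster it was -2.58. After thinning, P2ry6 was detected in 38.8% of control and 8.57% of NTD barcodes, compared with 0.0823% and 0.0508% of neuron-marked barcodes (0.216% and 0.152% unthinned, at median depths of 2667 and 2636 UMIs). Neuron-marked barcodes, which should lack the gene, are those outside the members with at least 2 of Tubb3, Stmn2, Elavl3 and Dcx.

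The other measured genes of the 21-gene microglia list did not share that difference. P2ry12 had a log2 ratio of 0.11 (-0.70 to 0.91) and Fcrls of 0.19 (-0.77 to 1.15). Cst3, the secreted protease inhibitor cystatin C, had 17 and 37 UMIs and a ratio of 1.36 (0.52 to 2.31), but it is expressed by many cell types and its ratio was 0.58 in all other barcodes. Of these 4 measured genes, 1 was higher and 1 lower, and 2 belong to the shortest span class and 0 to the longest.

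Border and yolk sac macrophage genes leaned higher in NTD by count. Of 7 measured genes 4 were higher and 1 lower, with a median of 0.73, but in the macrophage-like cluster the median was -0.18 and in its barcodes with at least 3 rule genes -0.12. Of the 7 genes 2 belong to the shortest and 3 to the longest span class. Apoe, which carries lipid, had 45 and 66 UMIs and a log2 ratio of 0.81 (0.25 to 1.39), against -0.70 in all other barcodes. Pf4, a chemokine of platelets and embryonic macrophages, had 11 and 22 UMIs (1.23, interval 0.16 to 2.45). Stab1, a scavenger receptor, was lower, with 90 and 49 UMIs (-0.61, interval -1.15 to -0.10, and -0.80 in other barcodes). Dab2 had 0.01 (-0.34 to 0.35) and F13a1 -0.09 (-0.49 to 0.29). Summed over all 21 genes the list gave 2731 and 2923 CPM.

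Among 11 measured genes of myeloid transcription factors none was at least 1.5-fold higher in NTD and 2 were lower, Spi1 and Ikzf1. Ikzf1, the lymphoid and myeloid regulator Ikaros, had 53 UMIs in 33 control and 23 UMIs in 14 NTD barcodes (-0.93, interval -1.72 to -0.21, and -0.96 in other barcodes). Runx1, needed for blood formation and named after its values were seen, had 92 and 53 UMIs (-0.53, interval -1.05 to -0.03). Of the 53 NTD UMIs of Runx1, 21 came from 1 barcode. Zeb2 (-0.20), Mef2c (-0.30) and Fli1 (-0.03) differed by less than 1.5-fold. The list had a median of -0.20, and 7 of its 11 genes belong to the longest span class.

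Of 24 cytokine receptor genes listed 4 were measured, of which 3 were lower in NTD and none higher, with a median of -0.85. Tgfbr1 and Tgfbr2 encode the receptor for TGF-beta, on which microglia depend. Tgfbr1 had 56 and 21 UMIs (-1.13, interval -1.95 to -0.41) and Tgfbr2 31 and 15 (-0.76, interval -1.78 to 0.15). In all other barcodes their ratios were -0.26 and -1.04. The list also leaned lower there, with 0 of 22 measured genes higher, 8 lower and a median of -0.46. Tnfrsf11a, the receptor RANK that marks macrophage precursors, had 42 and 18 UMIs (-0.94, interval -1.84 to -0.13, and -0.46 in other barcodes). Ifnar2, an interferon receptor chain, had a ratio of -0.54 (-0.45 in other barcodes), and none of the 4 belongs to the shortest or the longest span class.

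Of 4 measured genes of Fc receptor signalling, 3 of which belong to the longest span class, 1 was lower and none higher. It was Inpp5d, which encodes the lipid phosphatase SHIP1 that restrains that signalling. Inpp5d had 90 UMIs in 34 control barcodes (499 CPM, 401 to 613) and 31 UMIs in 18 NTD barcodes (206 CPM, 140 to 292). Its log2 ratio was -1.26 (-1.91 to -0.67), and -1.19 in all other barcodes, where its level was 9.38 and 4.10 CPM. The kinase gene Lyn (-0.54) and Sirpa (-0.46), the receptor for the signal that spares healthy cells, differed by less than 1.5-fold, as did Plcg2 (0.04).

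Genes for the engulfment of dying cells were more often lower than higher in NTD. Of 11 measured genes 1 was higher and 6 lower, with a median of -0.61, and 6 of the 11 belong to the longest span class. The list leaned lower in all other barcodes as well, with 0 of 28 measured genes higher, 11 lower and a median of -0.47. Among genes of recognition, Mertk, a receptor for dying cells, had 34 and 35 UMIs (0.30, interval -0.42 to 1.03) and its bridging ligand Gas6 12 and 18 (0.83, interval -0.29 to 2.03). Genes that drive the cytoskeleton included Elmo1, with 124 and 64 UMIs (-0.69, interval -1.15 to -0.25), and Dock2, with 66 and 33 (-0.73, interval -1.39 to -0.11), whereas Dock1, a partner of Elmo1, had 34 in each (0.26). The cholesterol exporter Abca1 (-1.07), the scavenger receptor Lrp1 (-0.94) and the integrin Itgb5 (-1.07) were lower. Their ratios in other barcodes were -0.97, -0.37 and -0.46, and those of Elmo1 and Dock2 were -0.54 and -0.34. Mertk, Gas6 and Dock1 stood at -0.82, -0.20 and -0.79 there. Mertk, Abca1, Lrp1 and Itgb5 were named after their values were seen. The scavenger receptor Msr1, also named after its values were seen, had 11 UMIs in control and 0 in NTD.

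Migration and adhesion genes gave 6 lower and 2 higher of 12, with a median of -0.54. Integrin chains were unlike each other: Itga6 had 47 and 16 UMIs (-1.26, interval -2.21 to -0.45), Itga9 36 and 12 (-1.28), and Itgb1, their common partner among many, 28 and 39 (0.73, interval 0.00 to 1.49). Dock8, a regulator of leukocyte movement, had 72 and 38 UMIs (-0.65, interval -1.27 to -0.07), against -1.10 in other barcodes. Of the 12 genes 4 belong to the longest span class and 2 to the shortest.

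**Figure D5:**
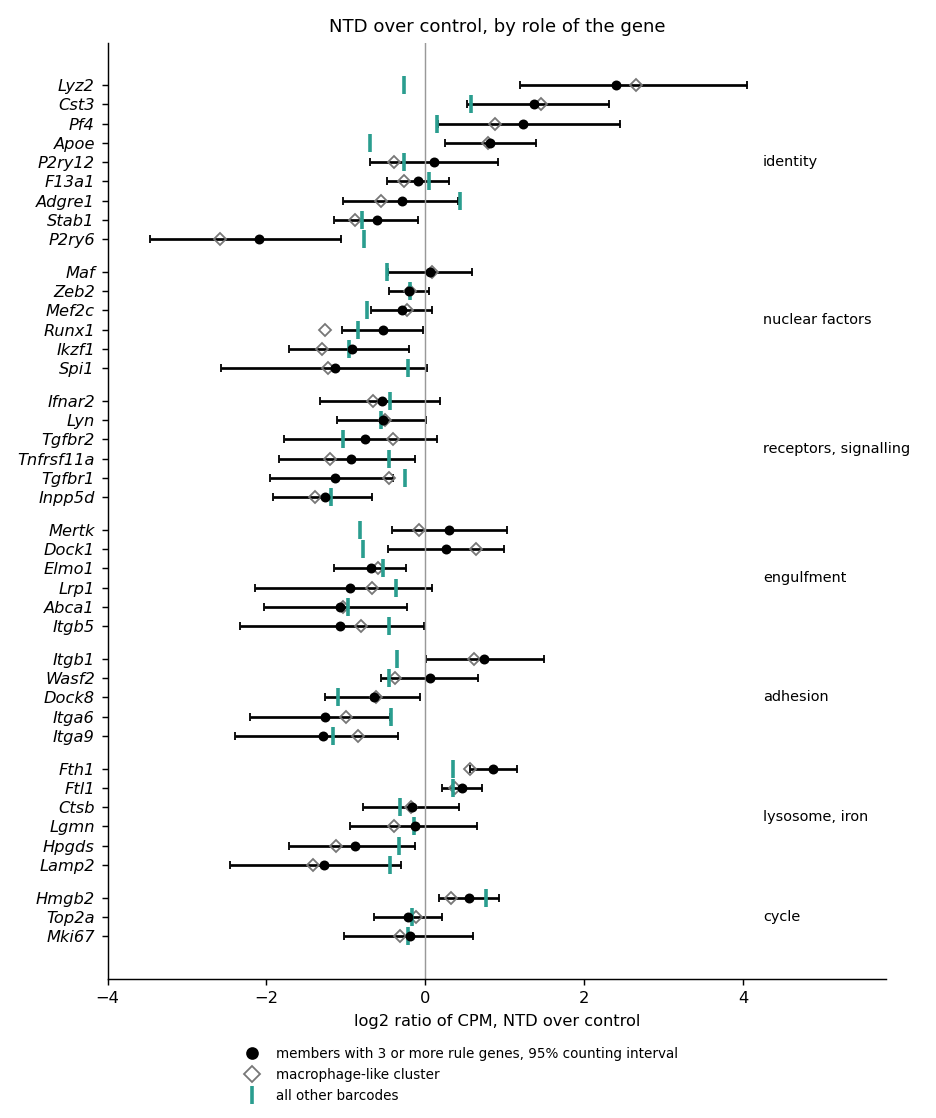
Log2 ratio of CPM of NTD over control for genes grouped by role, in members with at least 3 rule genes (black points, 95% counting intervals), in the macrophage-like cluster (diamonds) and in all other barcodes (green ticks). P2ry6 (-2.09, against -0.77 in other barcodes) lies left of the tick for other barcodes, and Inpp5d (-1.26 against -1.19) on it.

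Lysosome genes differed little as a group. Of 14 measured genes 2 were higher and 1 lower, with a median of -0.03 (0.09 under TMM), and 10 of the 14 belong to the shortest span class. Ctsb, which encodes cathepsin B, had 57 and 42 UMIs (-0.17, interval -0.79 to 0.42), and Lgmn (-0.13) and Npc2 (-0.04), which encode a lysosomal protease and a cholesterol carrier, also differed by less than 1.5-fold. The membrane protein gene Lamp2 was the lower one, with 33 and 11 UMIs (-1.28, interval -2.46 to -0.30). Atp6v0c, a subunit of the proton pump, had 27 and 36 (0.67, interval -0.08 to 1.45).

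Both ferritin genes had ratios above 0 beyond counting error, as both also had in the other barcodes. Fth1, the ferritin heavy chain, had 159 UMIs in 44 of 52 control barcodes (881 CPM, 749 to 1029) and 240 UMIs in 35 of 35 NTD barcodes (1594 CPM, 1399 to 1809). Its log2 ratio was 0.85 (0.56 to 1.15), against 0.56 in the macrophage-like cluster and 0.35 in all other barcodes. Both belong to the shortest span class. Ftl1, the light chain, had 251 and 288 UMIs (0.46, interval 0.21 to 0.71, and 0.34 in other barcodes). The list of 13 erythroid genes moved beside them in the 87 barcodes, from 9861 to 15463 CPM, though not in the macrophage-like cluster, where it stood at 12525 and 11484 CPM. Hpgds, a prostaglandin synthase of macrophages, was lower, with 47 and 21 UMIs (-0.88, interval -1.72 to -0.13).

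Several inflammatory genes had few or no UMIs, but the lists around them did not. A list of 30 cytokine and chemokine genes summed to 953 and 1435 CPM, against 759 and 1216 CPM in other barcodes. Mif held 108 of these 172 UMIs in control and 158 of 216 in NTD. Of the 30 genes 15 were at 0 in control and 13 in NTD. Il1b, Il6 and Cxcl10 had no UMI in either library, and Tnf had 3 in each. The antigen presentation genes H2-Aa, H2-Ab1 and H2-Eb1 had none, and Cd74 had 0 and 1. The whole list of 20 such genes summed to 227 and 259 CPM, against 87.5 and 88.3 CPM in other barcodes. A list of 28 interferon response genes summed to 488 and 452 CPM, against 243 and 222 CPM. A count of 0 allows up to 19.9 CPM in the NTD barcodes. Genes of dissociation and stress summed to 1895 CPM for control and 2770 CPM for NTD over 21 genes, a log2 ratio of 0.55 (0.34 to 0.76), against 0.47 in all other barcodes. Of 3 measured, all in the shortest span class, 1 was higher, the chaperone gene Hsp90aa1 (0.70, interval 0.32 to 1.10). Their part in the ratios of other groups was not tested. Mif, a cytokine gene expressed by many cell types, was detected in 44 and 34 barcodes with a log2 ratio of 0.81, against 0.75 in all other barcodes.

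Genes of the cell cycle showed few differences past 1.5-fold, while few genes of folate metabolism, p53 targets and apoptosis were measured. S phase genes numbered 18, with 2 higher and 2 lower (median 0.11), and genes of the G2 and M phases 36, with 6 higher and 1 lower (median 0.10). Of these, 9 and 15 belong to the shortest span class and 2 and 1 to the longest. Top2a had 113 and 81 UMIs (-0.22, interval -0.65 to 0.21), and Cks1b, a cyclin-dependent kinase subunit, 17 and 38 (1.40, interval 0.56 to 2.34, and 0.40 in other barcodes). Tyms, thymidylate synthase, which uses folate to make thymidylate, had 37 and 20 UMIs (-0.61, interval -1.49 to 0.20) and was the only one of 5 measured folate genes past 1.5-fold, of which 2 belong to the shortest and 1 to the longest span class. Of 3 measured p53 targets 1 was lower, Sesn1 (-0.68), and of 4 apoptosis genes none differed by 1.5-fold, with 2 and 3 of them in the shortest span class. Alkbh1, the DNA N6-methyladenine demethylase candidate in the title of the series, had 38 and 19 UMIs (-0.72, interval -1.62 to 0.09, and -0.59 in other barcodes). Igf1r, a growth factor receptor, had 45 and 49 (0.38).

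Genes with the lowest and highest ratios in the 87 barcodes were of several kinds, and some of their UMIs came from few barcodes. Gpr183, an oxysterol receptor of migrating immune cells, had 29 UMIs in 18 control barcodes and 4 in 2 NTD barcodes (-2.45, interval -4.57 to -1.09), and Entpd1, the nucleotide-degrading ectoenzyme CD39, 34 in 25 and 6 in 5 (-2.15, interval -3.78 to -0.97). In other barcodes the ratios were -0.62 and 0.12. In contrast, the neuronal gene Ncam2 had 35 control UMIs of which 32 came from 1 barcode, and Nrxn3 had 54 of which 34 did. Hes5, a Notch target of neural progenitors, had 5 UMIs in 4 control barcodes and 28 in 19 NTD barcodes, beside the neural progenitor list that stood at 526 and 1109 CPM.

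Xist, Uty and Afp differed in the members with at least 3 rule genes in the same direction as in the other barcodes. Not every list of another tissue did so. The neuron and endothelium sums given above moved in opposite directions in these members and in the other barcodes, within counting error in these members. Xist had 53 UMIs in 10 of 52 control barcodes and 229 in 28 of 35 NTD barcodes (log2 ratio 2.36, against 3.35 in other barcodes). Uty had 37 and 3 UMIs (-3.16, against -1.52). Afp, the fetal liver and yolk sac secreted protein, had 29 UMIs in 20 control barcodes and 0 in NTD, and its ratio was -6.04 in other barcodes. Sex, tissue and treatment cannot be told apart for any gene in these 2 libraries.

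Over all 241 members, 6952 genes were measured, of which 897 (12.9%) were higher and 1553 (22.3%) lower in NTD, with a median of -0.17. Under TMM the split was 1262 and 1057. The share of member UMIs that belonged to barcodes with at least 3 rule genes differed, at 29.6% in control and 43.5% in NTD, a 1.47-fold difference by itself. For a gene found in those barcodes alone, this adds 0.56 to the log2 ratio over all members. F13a1 had 0.34 over all members against -0.09 in the 87 barcodes, Maf 0.32 against 0.06 and Stab1 -0.12 against -0.61. The lowest ratios over all members were those of Afp (167 and 1 UMIs), and among the highest were Xist (136 and 415 UMIs) and Fabp7, a lipid-binding protein of radial glia (76 and 126 UMIs, 1.54, against 1.39 in other barcodes).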

How the data were processed

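Per the file headers, the authors used Cell Ranger 7.0.1, and the deposited values are raw UMI counts per gene and barcode. STAR and mm10 are named in the submitters' processing notes. The annotation, intron setting and cell-calling options were not found in any header or label. No barcode was removed. UMIs were summed over members per library, scaled to CPM and compared as log2 ratios with 0.5 counts added, for genes with at least 30 UMIs. Exact Poisson, conditional binomial, Clopper-Pearson and Newcombe intervals were computed at 95% (scipy 1.17.1). Intervals cover counting error only and, with 1 library per group, no biological variation.

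Members and lists were chosen with earlier results of these data known. Named genes were the rule and exclusion genes, the 15 highest and 15 lowest ratios, the 20 highest over other barcodes, and from each list up to 4 with most UMIs and 3 with the largest ratio. The same rule was applied to members with at least 3 rule genes after seeing the data. Members were clustered with Leiden in scanpy 1.11.5 (1000 variable genes, 15 components, resolution 0.5). Scrublet at its automatic threshold called 0 barcodes and is taken not to have worked, so no doublets were removed. Gene spans and positions come from GENCODE M21 on GRCm38. The ratio code was tested on simulated data. TMM factors came from edgeR 4.0.16. Other numbers of rule genes, filters, depths and scalings were tried.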

Additional observations from a re-analysis of the deposited data

How the results depend on the processing

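Most alternatives changed one choice. Thinning also left out barcodes under 1500 UMIs, which are all in the control library, and the macrophage-like cluster also holds 17 barcodes with exactly 2 rule genes. The difference in the share of members, -0.298 points, was -0.0963 (-0.197 to 0.00136) with at least 3 rule genes and -0.0620 (-0.141 to 0.0135) with at least 4. It was -0.128 (-0.227 to -0.0330) in the macrophage-like cluster and -0.0810 (-0.216 to 0.0461) after thinning to 1500 UMIs. Without the exclusion genes it was -0.156 (-0.349 to 0.0353), and with only barcodes of at least 1600 UMIs -0.422 (-0.618 to -0.239). It was below 0 in all 7 alternatives run, which share barcodes, but several of these intervals include 0. Genes 1.5-fold higher among all members went from 897 to 406 with at least 3 rule genes, 302 with at least 4, 279 in the macrophage-like cluster, 578 at a minimum of 60 UMIs and 1602 at 10. Lower genes went from 1553 to 499, 282, 299, 782 and 2885 in that order. In the 87 barcodes, 406 higher genes became 678 without the exclusion genes, 258 in macrophage-like barcodes with at least 3 rule genes, 181 at 60 UMIs and 1190 at 10. The 499 lower genes became 1065, 277, 136 and 1784 in that order, 282 with at least 4 rule genes and 299 in the macrophage-like cluster. Fewer or more barcodes and UMIs change how many genes are measured by construction. The border list's median of 0.73 turned to -0.18 in the macrophage-like cluster and -0.12 in its barcodes with at least 3 rule genes, Sesn1 to 0.23 with at least 4 rule genes, and Tyms to 0.00233 without the exclusion genes; the cause was not tested. Clusters, doublet scores and macrophage-like sets were alternatives chosen after seeing the data. Removing called doublets gave no value because none was called; leaving out the highest 10% of scores gave -0.289 points. No paired analysis was possible because each group had 1 library. With 87 barcodes, genes of few UMIs, such as Tmem119 and Sall1, could not be resolved.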
